A study of Mus musculus with 6 samples.

Results

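The ADAM-TS proteinases are secreted metalloproteinases of the extracellular matrix, and 10 of their genes were followed here in the abdominal aorta of mice: *Adamts1*, *Adamts2*, *Adamts4*, *Adamts5*, *Adamts7*, *Adamts8*, *Adamts9*, *Adamts10*, *Adamts12* and *Adamts15*. They were chosen by name from the 55426 genes of the deposited TPM table. All 10 were found, each as a single row. The study asked how gene expression in the aortic wall changes when *Prdm16*, which encodes a zinc finger transcriptional regulator, is deleted in vascular smooth muscle cells (VSMCs). Polyadenylated RNA was sequenced as 3 control and 3 Prdm16SMKO libraries. The control mice are described as wild type with Myh11-CreERT2, and the Prdm16SMKO mice were Prdm16 fl/fl and carried Myh11-CreERT2 as well. All mice were C57BL/6J males. Tamoxifen was given at 75 mg/kg/day for 5 days from 8 to 10 weeks of age, and RNA was taken 2 weeks later. Myh11-CreERT2 is a tamoxifen-inducible Cre driven by a smooth muscle myosin promoter and carried on the Y chromosome, so the model is limited to males and the deletion is aimed at smooth muscle cells, while the RNA is that of the whole vessel. TPM takes the length of a transcript into account, so that levels of different genes can be compared within a library. It has the same sum in each library, so that each value also depends on the other transcripts of that library.

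ADAM-TS enzymes are made as inactive precursors, cut by furin-like proprotein convertases, and held near the cell surface or in the matrix by their thrombospondin repeats. The aggrecanase and versicanase branch, to which *Adamts1*, *Adamts4*, *Adamts5*, *Adamts8*, *Adamts9* and *Adamts15* belong, cleaves large chondroitin sulfate proteoglycans such as versican, a space-filling molecule of the arterial wall. ADAMTS2 trims the amino propeptide from fibrillar procollagens, ADAMTS7 and ADAMTS12 cleave cartilage oligomeric matrix protein (COMP), and ADAMTS10 binds fibrillin microfibrils. TIMP3 is the main tissue inhibitor of several of these enzymes, and LRP1 takes some of them up from the cell surface.

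*Adamts1* had the highest level among these genes and *Adamts2* the smallest unadjusted p of the comparison, so their promoters are shown. Each line gives the 250 bases before the transcription start as listed by RefSeq on GRCm38.p6, written 5′ to 3′ on the strand of the gene, with TATA boxes (TATAAA) and GC boxes (GGGCGG on either strand) in capitals.
Adamts1, chr16:85803114-85803363, minus strand: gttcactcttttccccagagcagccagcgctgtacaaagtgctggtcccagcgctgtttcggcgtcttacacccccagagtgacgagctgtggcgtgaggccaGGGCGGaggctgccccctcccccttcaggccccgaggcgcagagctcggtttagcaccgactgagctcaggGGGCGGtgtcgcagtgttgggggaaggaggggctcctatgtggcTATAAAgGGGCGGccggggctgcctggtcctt
Adamts2, chr11:50601835-50602084, plus strand: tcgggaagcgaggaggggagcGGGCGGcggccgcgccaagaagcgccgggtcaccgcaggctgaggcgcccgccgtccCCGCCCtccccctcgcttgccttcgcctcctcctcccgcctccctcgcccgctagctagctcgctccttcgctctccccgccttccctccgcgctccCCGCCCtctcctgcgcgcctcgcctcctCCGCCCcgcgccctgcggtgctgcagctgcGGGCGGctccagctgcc
The *Adamts1* promoter held a TATA box 32 bases before the start and GC boxes 147, 76 and 25 bases before it, and its GC content was 65.6%. No TATAAA was found in the *Adamts2* promoter, which held 5 GC boxes at 229, 172, 75, 47 and 17 bases before the start and had a GC content of 78.0%. The median GC content of the 32851 promoters in the reference table was 52.4%, and on either strand TATAAA was present in 12.4% of them and GGGCGG in 32.7%. Entries were found for 4 of the 10 genes. The promoter of *Adamts9* (71.2% GC) held 1 GC box and that of *Adamts12* (63.2% GC) held none. The end of the *Adamts9* entry was not found near the start of a transcript of that gene, so the placing of its window is uncertain. For *Adamts1*, *Adamts2* and *Adamts12* the end of the entry was found there. Neither the letters of an AP-1 site (TGANTCA, in 6.75% of promoters), a cAMP response element (TGACGTCA, in 1.55%) or a TEAD site (GGAATG, in 12.6%), nor a CArG box (in 1.47%), were present on either strand of these 4 windows. None of the matches overlapped another, and a match of letters describes the sequence only.

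The targeted gene, *Prdm16*, stood at 33.4, 36.8 and 30.8 TPM in the control libraries and at 20.8, 27.7 and 14.8 TPM in the Prdm16SMKO libraries, in the order of the replicate numbers 1, 2 and 3 used throughout. The groups did not overlap, and the log2 fold change of −0.70 had an adjusted p of 0.376 (limma, Benjamini-Hochberg). Between 15.8% and 27.4% of a library's TPM was mitochondrial and between 15.5% and 31.4% came from the 45S ribosomal RNA locus, and every other TPM depends on those shares. The average depth given in the labels is 40 M read pairs. The depth of a single library is unknown from TPM, so no counting error can be given. The labels number the replicates but do not name the animals, and the p-values measure the spread between these libraries.

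In the aortic wall the 10 transcripts covered a wide range of levels (plot of TPM by gene and library). *Adamts1* was highest with a mean of 99.0 TPM over the 6 libraries, followed by *Adamts10* at 72.7, *Adamts2* at 41.1, *Adamts8* at 39.3 and *Adamts15* at 19.5 TPM. *Adamts5* at 9.82 and *Adamts9* at 7.29 TPM came next. *Adamts12* at 2.63, *Adamts7* at 0.997 and *Adamts4* at 0.487 TPM were the lowest. The order was steady where neighbours were far apart: the ranges of *Adamts10* and *Adamts2*, of *Adamts8* and *Adamts15*, of *Adamts15* and *Adamts5*, and of *Adamts9* and *Adamts12* did not overlap. *Adamts2* and *Adamts8* could not be ordered, since each was the higher in 3 of the 6 libraries. *Adamts1* exceeded *Adamts10* in 5 libraries, and *Adamts7* exceeded *Adamts4* in 5. Although their ranges overlapped, *Adamts5* was above *Adamts9* and *Adamts12* above *Adamts7* within each of the 6 libraries.

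**Figure D1:**
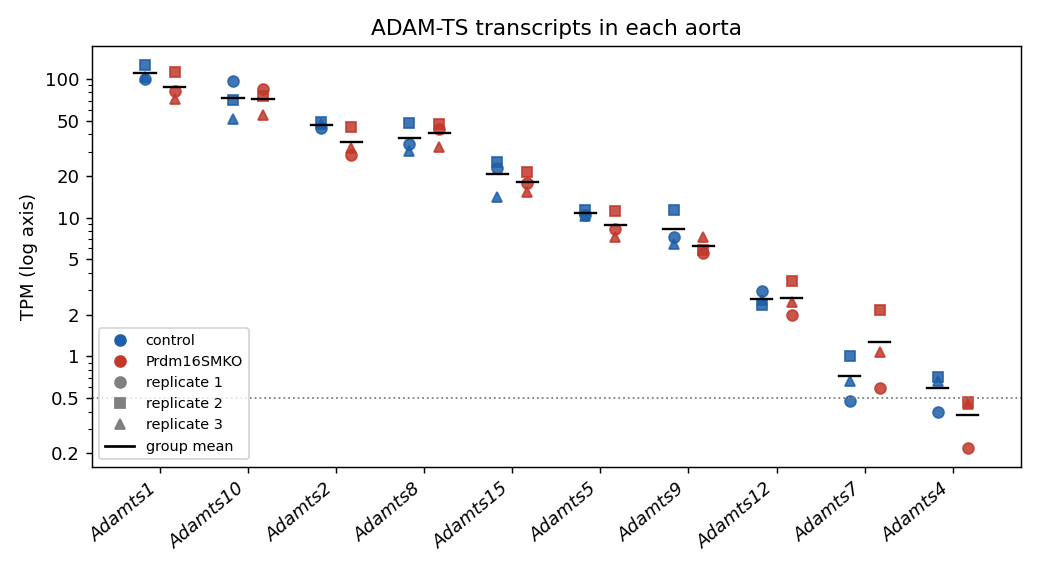
TPM of the 10 ADAM-TS genes (log axis) in each of the 3 control (blue) and 3 Prdm16SMKO (red) libraries, with a point shape for each replicate number, a bar at the group mean and a dotted line at the 0.5 TPM minimum for the test. The genes run from *Adamts1*, at 71.2 to 126 TPM, down to *Adamts4*, at 0.22 to 0.71 TPM, and the points of the 2 groups overlap for every gene.

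Added together, the 10 transcripts came to 267 to 347 TPM in the control libraries (311 ± 40.5, SD, n = 3) and to 225 to 324 TPM in the Prdm16SMKO libraries (274 ± 49.8, SD, n = 3). *Adamts1* made up 29.98% to 38.6% of this sum, *Adamts10* 19.4% to 30.9% and *Adamts2* 10.4% to 17.7%. *Adamts8* was the 1 gene of the 10 whose share did not overlap between the groups. It took 10.6%, 13.8% and 11.3% of the sum in control replicates 1, 2 and 3 and 16.1%, 14.6% and 14.4% in Prdm16SMKO replicates 1, 2 and 3, means of 11.9% ± 1.68 and 15.0% ± 0.92 (SD, n = 3). This share was singled out after its values were seen and was not tested. It moves with the levels of the other 9 genes as well as with *Adamts8*, whose own TPM overlapped between the groups. By TPM, 12.8% of all genes tested were without overlap. No such percentage was computed for shares of a sum, so 1 gene of 10 is not read as a result.

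None of these genes was called as changed in Prdm16SMKO aortas. Of the 10, 9 reached the minimum mean of 0.5 TPM and were tested, and 0 had an adjusted p under 0.05 (limma on log2(TPM + 0.5), Benjamini-Hochberg over 15775 genes), where 0.355% of all genes tested were called, 0.184% higher and 0.171% lower in Prdm16SMKO. At an unadjusted p under 0.05 there was 1, *Adamts2*, against 8.74% of all genes, 4.88% higher and 3.85% lower. The fitted difference was below 0 for 7 genes and above 0 for 2, with a median log2 fold change of −0.15. Over all genes tested 45.8% were below 0 and the median was 0.02. In 0 of the 9 were the groups without overlap, against 12.8% of all genes, or 5.76% with Prdm16SMKO the lower. The fold changes are on the log2(TPM + 0.5) scale, which understates those of the low genes. In whole aorta, fewer cells of a type and less RNA per cell cannot be told apart.

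Among the proteoglycan-cleaving enzymes, 4 of the 5 tested were below 0 and 1 was above 0. *Adamts1* (ENSMUSG00000022893, chromosome 16 from 85793827 to 85803113 on GRCm38), which encodes a versican- and aggrecan-cleaving enzyme, stood at 99.8, 126 and 103 TPM in the control and at 82.0, 112 and 71.2 TPM in the Prdm16SMKO libraries. Prdm16SMKO replicate 2 lay above control replicates 1 and 3, while the other two Prdm16SMKO libraries lay below every control. The means were 110 ± 14.4 and 88.3 ± 21.0 TPM (SD, n = 3), and the log2 fold change was −0.33 (95% interval −0.77 to 0.12, adjusted p = 0.750). It was −0.51 without Prdm16SMKO replicate 2, −0.23 without control replicate 2 and −0.19 without Prdm16SMKO replicate 3. *Adamts5* (ENSMUSG00000022894, chromosome 16 from 85856173 to 85901828), the gene of the major cartilage aggrecanase in mice, had values of 10.5, 11.4 and 10.3 TPM in control and 8.29, 11.2 and 7.29 TPM in Prdm16SMKO replicates. The ordering of its libraries was like that of *Adamts1*, with Prdm16SMKO replicate 2 among the controls. Its log2 fold change was −0.27 (95% interval −0.71 to 0.16, adjusted p = 0.823), and it was −0.44 without Prdm16SMKO replicate 2 and −0.15 without Prdm16SMKO replicate 3.

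*Adamts9* (ENSMUSG00000030022, chromosome 6 from 92772699 to 92943492), another versican-cleaving member, was at 7.28, 11.3 and 6.48 TPM in control and at 5.60, 5.83 and 7.23 TPM in Prdm16SMKO replicates 1, 2 and 3. Control replicate 2 stood above the other 5 libraries, which lay between 5.60 and 7.28 TPM. The log2 fold change of −0.37 (95% interval −0.89 to 0.16, adjusted p = 0.780) was −0.14 without control replicate 2. *Adamts15* (ENSMUSG00000033453, chromosome 9 from 30899155 to 30922452), which encodes an aggrecan- and versican-cleaving enzyme, was at 22.8, 25.4 and 14.1 TPM in control and at 17.9, 21.3 and 15.4 TPM in Prdm16SMKO replicates. The control values were the wider, and all 3 Prdm16SMKO values lay within them. The log2 fold change was −0.15 (95% interval −0.70 to 0.39, adjusted p = 0.950), and it ran from −0.40 without control replicate 3 to 0.0090 without control replicate 2.

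*Adamts8* (ENSMUSG00000031994, chromosome 9 from 30942562 to 30963838), the gene of an aggrecan-cleaving enzyme also known for its antiangiogenic activity, was at 34.0, 48.0 and 30.2 TPM in control and at 43.9, 47.4 and 32.3 TPM in Prdm16SMKO replicates. The Prdm16SMKO values lay within the control range. Its log2 fold change was 0.15 (95% interval −0.35 to 0.64, adjusted p = 0.949), and it ran from 0.0080 without control replicate 3 to 0.34 without control replicate 2. *Adamts4* (ENSMUSG00000006403, chromosome 1 from 171250421 to 171260637), an inducible aggrecanase gene, was at 0.40, 0.71 and 0.67 TPM in control and at 0.22, 0.47 and 0.45 TPM in Prdm16SMKO replicates. With a mean below 0.5 TPM it was not tested. The difference of its group means was −0.31 on the log2(TPM + 0.5) scale, with a range of −0.45 to −0.18 when each library was left out, and the control replicate with the lowest value lay below 2 of the Prdm16SMKO replicates.

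*Adamts2* (ENSMUSG00000036545, chromosome 11 from 50602084 to 50807573), the procollagen N-proteinase, showed the smallest unadjusted p of the 9 genes. Its values were 44.3, 49.4 and 47.2 TPM in control and 28.4, 45.4 and 31.9 TPM in Prdm16SMKO replicates 1, 2 and 3. Prdm16SMKO replicates 1 and 3 were below all controls, and replicate 2 was between them. Means were 46.9 ± 2.56 and 35.2 ± 8.95 TPM (SD, n = 3). The log2 fold change of −0.44 (SE 0.19, unadjusted p = 0.0498) had an adjusted p of 0.570, and it ran from −0.63 without Prdm16SMKO replicate 2 to −0.30 without Prdm16SMKO replicate 1. The exact permutation test, two-sided, gave p = 0.2 for *Adamts2*. The smallest p that this test of 3 libraries against 3 can give is 0.1, so single values could not pass 0.05 by that test.

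Of the COMP-cleaving enzymes, *Adamts7* (ENSMUSG00000032363, chromosome 9 from 90163069 to 90208071), whose product is known for its role in VSMC migration and neointima formation, was at 0.48, 1.0 and 0.67 TPM in control and at 0.59, 2.16 and 1.08 TPM in Prdm16SMKO replicates. It varied the most of the tested members, 4.50-fold from the lowest to the highest library, at levels close to the 0.5 TPM minimum. The log2 fold change was 0.47 (95% interval −0.42 to 1.36, adjusted p = 0.867), and without Prdm16SMKO replicate 2 it was 0.13. *Adamts12* (ENSMUSG00000047497, chromosome 15 from 11064790 to 11349231) was at 2.97, 2.33 and 2.53 TPM in control and at 1.98, 3.51 and 2.46 TPM in Prdm16SMKO replicates. The lowest and the highest value were both in Prdm16SMKO libraries. Its log2 fold change was −0.01 (95% interval −0.57 to 0.56, adjusted p = 0.998), and it ran from −0.19 without Prdm16SMKO replicate 2 to 0.15 without Prdm16SMKO replicate 1.

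*Adamts10* (ENSMUSG00000024299, chromosome 17 from 33524204 to 33553782), the fibrillin-associated member, was at 97.6, 71.2 and 51.9 TPM in control and at 84.5, 75.5 and 55.5 TPM in Prdm16SMKO replicates. All Prdm16SMKO values lay within the control range, which spanned 1.88-fold. Its log2 fold change of −0.01 (95% interval −0.58 to 0.56, adjusted p = 0.997) ran from −0.24 without control replicate 3 to 0.22 without control replicate 1. With array weights, which give less weight to libraries with larger residuals, it was −0.37 (adjusted p = 0.344).

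**Figure D2:**
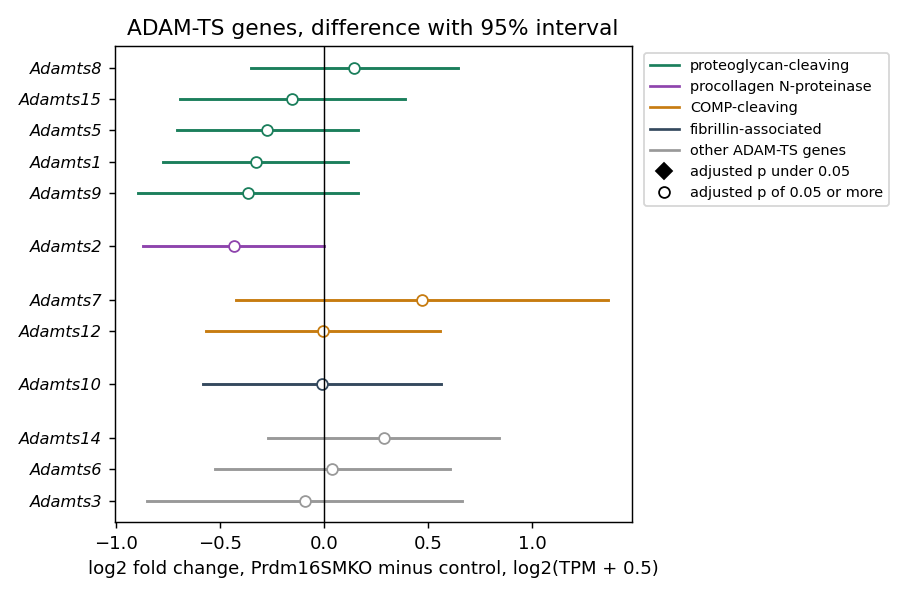
Log2 fold change between Prdm16SMKO and control aortas on the log2(TPM + 0.5) scale (points) with 95% intervals from limma (lines) for the 9 tested members, colored by substrate group, and for 3 other ADAM-TS genes (grey). Open points mark an adjusted p of 0.05 or more, which holds for all 12 genes, and the interval of *Adamts2* ends just below 0.

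The library kit named in the labels does not mark strand, so reads of genes that overlap on opposite strands cannot be told apart. The longest overlap between an exon of *Adamts7* and an exon of *Tbc1d2b* is 122 bases. That between exons of *Adamts8* and *Gm29724* is 305 bases. For *Adamts9* the longest exon overlap is 1215 bases with *A730049H05Rik* and 167 bases with *Gm15737*. The total overlap of each pair was not computed.

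There were 2 pairs of chromosomal neighbours among the members. *Adamts1* and *Adamts5* lie 53.1 kb apart on the minus strand of chromosome 16 with 0 protein-coding genes between them. The ratio of *Adamts1* to *Adamts5* was 9.50, 11.05 and 10.1 in control and 9.89, 9.997 and 9.77 in Prdm16SMKO replicates 1, 2 and 3. Across libraries in which *Adamts1* itself ran from 71.2 to 126 TPM, this ratio moved 1.16-fold. *Adamts8* and *Adamts15* lie head to head on chromosome 9, 20.1 kb apart with 0 protein-coding genes between them. Their ratio was 1.49, 1.89 and 2.14 in control and 2.45, 2.23 and 2.09 in Prdm16SMKO replicates, a range of 1.64-fold. The lowest Prdm16SMKO ratio lay just below the highest control ratio, and the mean log2 ratio was 0.31 higher in Prdm16SMKO (exact permutation test, two-sided p = 0.2, where 0.1 is the smallest possible, so the test could not pass 0.05).

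Likeness of 2 genes was measured as the mean absolute difference of their log2(TPM + 0.5) values over the 6 libraries, each gene centred on its own mean (heat map of deviations by gene and library). Among the 36 pairs of tested members it ranged from 0.05 for *Adamts1* and *Adamts5* to 0.53 for *Adamts7* and *Adamts10*, with a median of 0.28. *Adamts2* was 0.10 from *Adamts5* and 0.12 from *Adamts1*, and *Adamts8* was 0.17 from *Adamts15*. Of 9668 genes averaging 5 TPM or more, those most like *Adamts1* were *Pspc1* at 0.043, which encodes a paraspeckle protein, *Tpst1* at 0.044, a tyrosylprotein sulfotransferase gene, and *Adamts5* at 0.054. Those most like *Adamts2* were *Mgp* at 0.047, which encodes the calcification inhibitor matrix Gla protein, *Gpr153* at 0.049, an orphan receptor gene, and *Fmo2* at 0.051, a flavin monooxygenase gene. In likeness to *Adamts2*, *Adamts5* ranked 29, *Adamts1* 64, *Adamts15* 1883, *Adamts9* 5138, *Adamts8* 5263 and *Adamts10* 7180 of the 9668 genes. In likeness to *Adamts1*, *Adamts2* ranked 325, *Adamts15* 2045, *Adamts8* 4415, *Adamts9* 4761 and *Adamts10* 7539. These values share 6 libraries and their scaling, and carry no test.

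**Figure D3:**
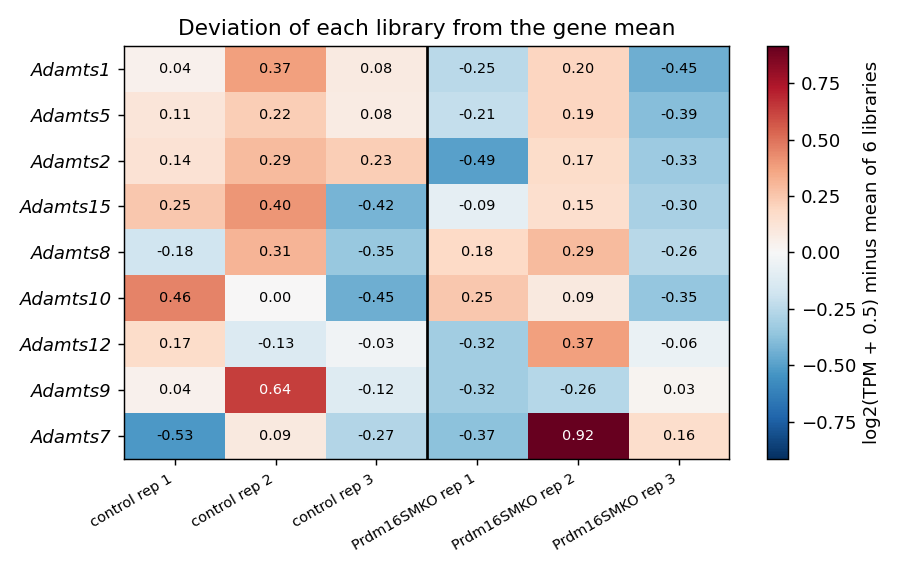
Deviation of log2(TPM + 0.5) from the gene's mean over the 6 libraries for the 9 tested members (rows) in control and Prdm16SMKO replicates (columns), red above and blue below the mean. *Adamts1* and *Adamts5* deviate alike in every library, with −0.45 and −0.39 in Prdm16SMKO replicate 3 and 0.37 and 0.22 in control replicate 2, whereas *Adamts7* reaches 0.92 in Prdm16SMKO replicate 2.

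The cell type markers measured in the same libraries are given beside these results. The wall was rich in smooth muscle transcripts, with *Myh11* at 1488 to 3242 TPM. Summed over 8 genes, VSMC markers came to 15179 to 25710 TPM in control and 11782 to 18072 TPM in Prdm16SMKO libraries, and 0 of 8 were called. Of these VSMC markers 6 of 8 were below 0, with a median log2 fold change of −0.39. At an unadjusted p under 0.05, 2 were lower and 1 was higher, against 3.85% and 4.88% of all genes. Fibroblast markers came to 1017 to 1172 TPM and 966 to 1774 TPM, with 8 of 8 above 0 (45.8% of all genes were below 0) and 0 called, and Prdm16SMKO replicate 2 was the highest library. Endothelial markers came to 266 to 344 TPM in control and 302 to 506 TPM in Prdm16SMKO, with 0 called and 6 of 8 above 0. At an unadjusted p under 0.05, 1 endothelial marker was lower and 1 was higher. Macrophage markers came to 61.5 to 95.6 TPM and 93.1 to 173 TPM, with 0 called, 7 of 8 above 0, a median log2 fold change of 0.71 and 4 of 8 higher at an unadjusted p under 0.05, against 4.88% of all genes. Adipocyte markers came to 561 to 1131 TPM in control and to 664, 549 and 2819 TPM in Prdm16SMKO replicates 1, 2 and 3, so that Prdm16SMKO replicate 3 stood apart, with 0 called, 8 of 8 above 0 and 2 of 8 higher at an unadjusted p under 0.05. Chondrocyte markers were low, at 7.50 to 13.0 TPM in control and 3.73 to 4.76 TPM in Prdm16SMKO, with 3 of 8 above the expression minimum and *Matn1* at 0 in all libraries. The 3 tested were all below 0, with a median log2 fold change of −1.14, and 0 were called. At an unadjusted p under 0.05, 2 of the 3 were lower, against 3.85% of all genes. Of 10 immediate-early genes, which respond within minutes to stimulation or handling, 4 were called, all lower in Prdm16SMKO aortas, against 0.171% of all genes called lower. The summed level of the 10 was 590 to 824 TPM in control against 215 to 360 TPM in Prdm16SMKO. The part of these cells and genes in the ADAM-TS values was not tested.

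Of the 9 other ADAM-TS genes, 3 were tested and 0 were called. *Adamts14*, a procollagen N-proteinase gene like *Adamts2*, was at 5.67, 5.58 and 3.72 TPM in control and at 7.51, 6.57 and 4.56 TPM in Prdm16SMKO replicates, with a log2 fold change of 0.29 (adjusted p = 0.870). *Adamts6* lay between 4.51 and 8.12 TPM and *Adamts3*, a procollagen N-proteinase gene as well, between 0.43 and 0.75 TPM. Thus *Adamts2* was the most abundant of the procollagen N-proteinase transcripts in each of the 6 libraries. *Adamts13*, which encodes the von Willebrand factor-cleaving protease made mainly in the liver, was listed at 0 in all 6 libraries. *Adamts16*, *Adamts17*, *Adamts18*, *Adamts19* and *Adamts20* were below the minimum. Among them *Adamts20* was at 0.23, 0.16 and 0.24 TPM in control and 0.99, 0.65 and 0.20 TPM in Prdm16SMKO replicates, with overlap between the groups.

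The genes that inhibit, activate or clear ADAM-TS enzymes were led by *Timp3*, *Timp2* and *Lrp1*. *Timp3* was at 388 ± 65.5 TPM in control and 365 ± 50.5 TPM in Prdm16SMKO aortas (SD, n = 3, log2 fold change −0.09, 95% interval −0.49 to 0.32). *Timp2* was at 265 ± 19.6 and 272 ± 58.2 TPM (log2 fold change 0.02, 95% interval −0.38 to 0.43), and *Lrp1* at 196 ± 18.6 and 192 ± 17.4 TPM (log2 fold change −0.03, 95% interval −0.37 to 0.31). Of 11 regulators, 10 were tested, 0 were called, and *A2m* was listed at 0 in all libraries. The median log2 fold change was −0.06. At an unadjusted p under 0.05 there were 2, both lower in Prdm16SMKO aortas, where 3.85% of all genes were lower at that threshold.

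*Timp4*, a metalloproteinase inhibitor gene expressed in vascular and cardiac tissue, had the largest difference of the regulators. It was at 18.9, 28.1 and 18.2 TPM in control and at 9.74, 5.38 and 7.73 TPM in Prdm16SMKO replicates 1, 2 and 3, and all Prdm16SMKO values were below all control values. Its log2 fold change was −1.46 (SE 0.25, 95% interval −2.03 to −0.89) with an adjusted p of 0.0620, and it passed 0.05 in 6 of the 16 alternative settings, with the adjusted p running from 0.0120 to 0.278. *Timp1* was at 12.3 ± 1.17 TPM in control and 9.22 ± 1.41 TPM in Prdm16SMKO aortas (SD, n = 3), with a log2 fold change of −0.41 (adjusted p = 0.561).

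Of 18 genes of ADAM-TS substrates, 14 were tested, 10 were below 0 and the median log2 fold change was −0.53, against 0.02 over all genes. At an unadjusted p under 0.05, 8 were lower and 1, *Vwf*, was higher, against 3.85% and 4.88% of all genes. Control and Prdm16SMKO values were without overlap in 9 of the 14, against 12.8% of all genes. Only *Comp*, which encodes a pentameric matrix glycoprotein and the substrate of ADAMTS7 and ADAMTS12, was called, against 0.355% of all genes tested. It was at 18.8, 23.0 and 19.2 TPM in control and at 7.37, 8.97 and 8.92 TPM in Prdm16SMKO replicates, with means of 20.3 ± 2.31 and 8.42 ± 0.91 TPM (SD, n = 3). Its log2 fold change was −1.22 (SE 0.17, adjusted p = 0.0265). The call was lost when any 1 library was left out, with an adjusted p from 0.0613 to 0.114 and a log2 fold change from −1.27 to −1.13. It was also lost with no expression minimum (adjusted p = 0.110), no variance trend (0.0652) and the replicate block (0.137). The call held in 7 of the 16 alternative settings.

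*Vcan*, which encodes versican, was at 25.3, 31.9 and 24.8 TPM in control and at 16.2, 18.6 and 16.4 TPM in Prdm16SMKO replicates. No Prdm16SMKO value reached the control range, and the log2 fold change was −0.65 (adjusted p = 0.208). *Acan*, which encodes aggrecan, was at 3.63 ± 1.31 and 1.33 ± 0.25 TPM (SD, n = 3), with a log2 fold change of −1.14 (adjusted p = 0.191). Among the procollagens, *Col1a1* had a log2 fold change of −0.54 (adjusted p = 0.447), *Col3a1* of −0.74 (adjusted p = 0.234) and *Col5a1* of −0.53 (adjusted p = 0.441). *Bgn*, which encodes the small proteoglycan biglycan, and *Fn1*, which encodes fibronectin, were the most abundant substrates. *Bgn* was at 2124 ± 465 and 1298 ± 199 TPM (log2 fold change −0.70, adjusted p = 0.332) and *Fn1* at 1381 ± 272 and 836 ± 217 TPM (log2 fold change −0.74, adjusted p = 0.367). *Vwf*, which encodes von Willebrand factor of endothelial cells, stood at 38.9 ± 12.9 and 73.6 ± 28.8 TPM (log2 fold change 0.90, adjusted p = 0.435). The protease of von Willebrand factor is encoded by *Adamts13*, which is not among the members followed here.

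**Figure D4:**
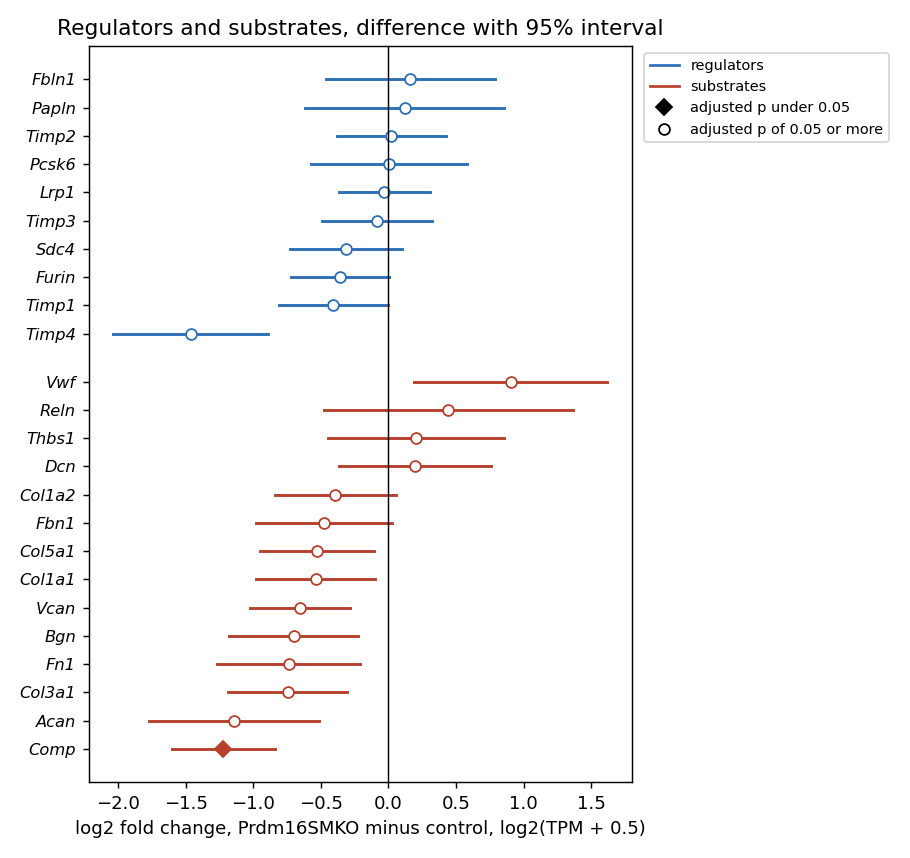
Log2 fold change between Prdm16SMKO and control aortas on the log2(TPM + 0.5) scale (points) with 95% intervals from limma (lines) for 10 regulators (blue) and 14 substrates (red) of ADAM-TS enzymes. The filled point is *Comp* at −1.22 (adjusted p = 0.0265), and open points, *Timp4* at −1.46 among them, have an adjusted p of 0.05 or more.

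The ratio of a proteinase transcript to that of a known substrate was computed for 10 pairs, which were chosen after the values were seen. *Adamts8* over *Vcan* was 1.35, 1.502 and 1.22 in the control and 2.702, 2.54 and 1.96 in the Prdm16SMKO libraries. *Adamts1* over *Vcan* was 3.95, 3.95 and 4.16 in control and 5.04, 6.00 and 4.34 in Prdm16SMKO replicates. *Adamts12* over *Comp* was 0.158, 0.102 and 0.132 in control and 0.269, 0.391 and 0.276 in Prdm16SMKO replicates. In 7 of the 10 pairs every Prdm16SMKO ratio was above every control ratio (exact permutation test, two-sided p = 0.1, the smallest possible). The 3 pairs with overlap were *Adamts9* over *Vcan*, *Adamts2* over *Col1a1* and *Adamts10* over *Fbn1*. The ratio of any gene to *Vcan* was higher in Prdm16SMKO libraries without overlap for 70.9% of the 14932 tested genes above 0 in every library, and that share was 66.3% for *Col3a1*, 89.1% for *Comp*, 42.0% for *Col1a1* and 42.5% for *Fbn1*. The count of 7 is therefore no result about the proteinases.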

How the data were processed

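RNA of abdominal aorta was sequenced by the authors after poly(A) selection, as 151 bp read pairs, in 3 control and 3 Prdm16SMKO libraries. The deposited values are TPM, rounded to 2 decimals, for 55426 genes, of which 28867 were at 0 in all 6 libraries. The submitters' processing notes name GRCm38, bcl2fastq, cutadapt 2.3, FastQC 0.11.8, STAR 2.7.8a, RSEM 1.3.3 and MultiQC 1.7. The annotation is not given in the sources used here, and the depth of a single library cannot be read from TPM. Libraries were joined to groups by the sample labels, and 0 pairs of libraries were identical. Positions were taken from GENCODE M21 (GRCm38), which lists 55240 of these genes. Promoter sequences are from RefSeq on GRCm38.p6. Not every overlap between genes is reported here.

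Genes averaging 0.5 TPM or more (15775) were compared between groups on log2(TPM + 0.5) by limma 3.58.1 (R 4.3.3) with a variance trend and equal weights. The p-values were two-sided, with Benjamini-Hochberg adjustment over all genes tested, and genes with an adjusted p under 0.05 are referred to as called. The fit was tested on simulated data, and the outcome is not given here. The differences added there were larger than those of the members, so power for differences of the members' size was not measured. Alternatives were other pseudocounts, minimums, scalings and variance settings, a replicate block and leaving out each library. Every ADAM-TS member was named. Of the lists beside them (other ADAM-TS genes, regulators, substrates), genes with an unadjusted p under 0.05, called genes and the 3 with the highest TPM were named, while any further gene was picked with its values known. The members and lists were chosen with earlier results of these data known. Figures were made with Python 3.11.15 and matplotlib 3.10.9.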

Additional observations from a re-analysis of the deposited data

How the results depend on the processing

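Over the 143 values of the 9 tested members under 16 alternative settings, the number called was 0 and the lowest adjusted p was 0.224. The sign was reversed in 9 of them, all of *Adamts10*, *Adamts12* or *Adamts15*. For *Adamts10* the log2 fold change was 0.026 after quantile normalization and 0.0064 after rescaling without mitochondrial and 45S transcripts, and it ran from −0.24 to 0.22 with each library left out. For *Adamts12* it was 0.0064 after that rescaling and ran from −0.19 to 0.15 with each library left out, and for *Adamts15* it ran from −0.40 to 0.0090.

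Of the other ADAM-TS genes, regulators and substrates, 1 was called. That number was 0 with no expression minimum, 0 with no variance trend, 2 with a minimum mean of 2 TPM, 2 after rescaling without mitochondrial and 45S transcripts, 3 with median-of-ratios size factors, 3 after quantile normalization and 6 with array weights, and it ran from 0 to 1 with each library left out. The cause was not tested. Over all genes the number called was 56, against 10 with no expression minimum, 77 with a minimum mean of 2 TPM, 153, 129 and 123 under the 3 scalings, 33 with no variance trend and 494 with array weights. Without control replicate 1, 2 or 3 it was 17, 5 and 17, and without Prdm16SMKO replicate 1, 2 or 3 it was 61, 28 and 39. Without control replicate 2 the median of all genes was 0.11 on the log2 scale. Libraries with the same replicate number did not deviate together (r of −0.13, −0.11 and 0.02 for numbers 1, 2 and 3), so the numbers were not treated as pairs. With the replicate block the number called was 4 over all genes, 0 among the members and 0 among the listed genes.

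With 3 libraries per group the smallest standard error of a tested member was 0.19 on the log2 scale (*Adamts2*). TPM holds no record of read counts, which matters most for *Adamts4* and *Adamts7*, the lowest genes.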

Other observations

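Of the 18 substrate genes, 4 were not tested. *Bcan* and *Ncan*, the brain proteoglycan genes, *Col2a1*, the cartilage collagen gene, and *Fbn2* were below the minimum mean of 0.5 TPM, with *Bcan* at 0.00 to 0.67 TPM and *Col2a1* at 0.02 to 0.53 TPM.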
